A study of Mus musculus with 15 samples.

Results

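The circadian clock genes described here are *Arntl* (also called *Bmal1*), *Clock*, *Npas2*, *Per1*, *Per2*, *Per3*, *Cry1*, *Cry2*, *Nr1d1* and *Dbp*, chosen by gene symbol as the core loop of the clock and 1 of its direct outputs. They are 10 of the 30672 genes in the count table. All 10 were among the 15533 genes that passed the filter on low counts, and the lowest count of any of them in any library was 16, for *Npas2*, so that each was measured in every mouse. RNA came from the tibialis anterior, a fast-twitch muscle of the lower leg, of 15 male 129Pas mice aged 7 weeks. The groups were wild-type mice (WT, n = 4), wild-type mice given tamoxifen (WT + TAM, n = 4), Mtm1-/y mice (n = 4) and Mtm1-/y mice given tamoxifen (Mtm1-/y + TAM, n = 3). Mtm1-/y mice carry a knock-out of the X-linked *Mtm1* gene and serve as a model of X-linked myotubular myopathy. The product of this gene, myotubularin, is a phosphoinositide phosphatase. Tamoxifen is a modulator of the oestrogen receptor. The sources used here state neither how it was dosed nor the time of day at which muscles were taken, the light cycle or the feeding state, and the comparisons below ask whether the clock genes differed between the groups and whether the libraries were spread along the clock's cycle.

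In mammalian cells, ARNTL pairs with CLOCK or NPAS2 and binds E-box elements in DNA, which switches on the *Per* and *Cry* genes. The PER and CRY proteins then block that pair, and the loop takes about a day to run. In a second loop the ARNTL pair switches on *Nr1d1*, whose product REV-ERBα represses *Arntl* through a shared Rev-erb/ROR element, while DBP acts on D-box elements. In mouse tissues, skeletal muscle included, *Arntl* and *Npas2* transcripts peak late in the night or near dawn, *Nr1d1* and *Dbp* peak during the day and *Per2* toward the evening.

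Start-site sequences from RefSeq on build GRCm38.p6 matched 9 of the 10 genes, in 13 windows that run from 250 bases before to 50 bases after a transcript start. They were searched on both strands for the E-box CACGTG, the D-boxes TTATGTAA and TTACGTAA and the Rev-erb/ROR core TAGGTCA, none of which overlapped another. The 4 windows that held a match are printed 5′ to 3′ on the gene's strand, with the match in capitals, to show where these letters lie. They lie at chr7:113207261-113207560 (+) for *Arntl*, chr11:69098699-69098998 (+) for *Per1*, chr4:151044616-151044915 (-) for *Per3* and chr10:85185005-85185304 (-) for *Cry1*.
Arntl: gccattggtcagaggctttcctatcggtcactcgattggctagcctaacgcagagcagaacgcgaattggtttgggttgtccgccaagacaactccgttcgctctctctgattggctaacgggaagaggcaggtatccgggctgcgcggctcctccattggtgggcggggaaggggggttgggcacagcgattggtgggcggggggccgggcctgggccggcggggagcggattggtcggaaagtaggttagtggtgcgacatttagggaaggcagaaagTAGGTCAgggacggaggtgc
Per1: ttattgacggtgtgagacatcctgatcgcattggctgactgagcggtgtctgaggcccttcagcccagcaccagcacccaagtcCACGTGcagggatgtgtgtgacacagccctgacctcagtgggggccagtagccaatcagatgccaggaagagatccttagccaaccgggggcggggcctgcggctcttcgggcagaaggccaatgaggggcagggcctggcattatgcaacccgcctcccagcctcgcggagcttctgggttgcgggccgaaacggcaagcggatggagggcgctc
Per3: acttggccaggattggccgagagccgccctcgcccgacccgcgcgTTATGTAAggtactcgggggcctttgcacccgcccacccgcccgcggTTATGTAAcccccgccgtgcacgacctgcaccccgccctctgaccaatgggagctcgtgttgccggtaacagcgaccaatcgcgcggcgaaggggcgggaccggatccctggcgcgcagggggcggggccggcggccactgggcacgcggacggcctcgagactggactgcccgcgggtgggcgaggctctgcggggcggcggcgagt
Cry1: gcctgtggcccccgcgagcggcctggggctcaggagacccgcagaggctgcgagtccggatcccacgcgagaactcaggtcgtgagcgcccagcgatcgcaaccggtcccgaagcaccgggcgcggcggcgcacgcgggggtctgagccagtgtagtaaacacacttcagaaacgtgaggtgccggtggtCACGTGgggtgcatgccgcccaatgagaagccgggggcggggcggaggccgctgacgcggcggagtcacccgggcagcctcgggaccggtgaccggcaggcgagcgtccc

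The *Arntl* window held the Rev-erb/ROR core 30 bases after its start, the *Per1* window an E-box whose first base lay at -166, the *Cry1* window an E-box at -60, and the *Per3* window the D-box TTATGTAA at both -205 and -158. Of 32851 mouse windows of the same length, 7.15% held CACGTG, 0.938% held TTATGTAA, 0.119% held TTACGTAA and 2.61% held TAGGTCA. The windows of *Clock*, *Npas2*, *Cry2*, *Nr1d1* and *Dbp*, and the other window of *Arntl* and of *Per1*, held none of these letters. A match is a description of the letters in 1 window and not of binding.

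Levels are given as CPM, counts scaled to a common library size with TMM factors, in the order of the replicate numbers, which name the mice and carry no rank. *Arntl* (ENSMUSG00000055116, chr7:113207465-113314126), the partner shared by both activator pairs, was at 8.95, 28.3, 25.8 and 13.2 CPM in WT, at 4.58, 23.0, 22.7 and 19.8 CPM in WT + TAM, at 22.5, 30.9, 12.7 and 25.0 CPM in Mtm1-/y, and at 19.6, 24.3 and 5.31 CPM in Mtm1-/y + TAM. WT replicates 1 and 4, WT + TAM replicate 1, Mtm1-/y replicate 3 and Mtm1-/y + TAM replicate 3 were low, at 13.2 CPM or less, and the other 10 libraries lay at 19.6 CPM or more. *Npas2* (ENSMUSG00000026077, chr1:39193731-39363236), which can stand in for CLOCK, was at 0.812, 3.24, 2.35 and 0.792 CPM in WT, at 0.654, 2.96, 2.41 and 2.90 CPM in WT + TAM, at 1.62, 4.07, 0.794 and 3.72 CPM in Mtm1-/y, and at 3.07, 2.17 and 0.881 CPM in Mtm1-/y + TAM. The 5 libraries lowest in *Npas2* were the 5 lowest in *Arntl*, and every group held at least 1 of them. *Npas2* rests on 16 to 166 counts per library, the fewest of the 10 genes. *Clock* (ENSMUSG00000029238, chr5:76209868-76304792), the other DNA-binding partner of ARNTL, moved much less, from 23.1 CPM in WT + TAM replicate 1 to 39.8 CPM in Mtm1-/y replicate 1.

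Among the repressors, *Per2* (ENSMUSG00000055866, chr1:91415982-91459324), which closes the loop by holding CRY on the activators, varied most: it was at 10.9, 1.98, 2.17 and 9.59 CPM in WT, at 31.8, 2.19, 7.26 and 9.57 CPM in WT + TAM, at 30.3, 3.75, 17.8 and 2.02 CPM in Mtm1-/y, and at 5.41, 3.20 and 15.6 CPM in Mtm1-/y + TAM. Low and high libraries stood in every group, and the highest library held 16.1 times the lowest. *Per1* (ENSMUSG00000020893, chr11:69095217-69109960), a PER protein gene that also responds quickly to hormones and other signals, was at 115, 83.5, 70.7 and 109 CPM in WT, at 178, 70.3, 124 and 163 CPM in WT + TAM, at 432, 112, 195 and 67.9 CPM in Mtm1-/y, and at 80.4, 64.3 and 139 CPM in Mtm1-/y + TAM. Mtm1-/y replicate 1 was far above all other libraries in *Per1*, while the lowest Mtm1-/y library fell below every WT library. *Per3* (ENSMUSG00000028957, chr4:151003652-151044665), the third PER gene, was at 49.0, 22, 24.3 and 54.2 CPM in WT, at 79.6, 18.9, 29.6 and 21.5 CPM in WT + TAM, at 43.2, 13.4, 33.0 and 18.4 CPM in Mtm1-/y, and at 24.3, 18.4 and 51.9 CPM in Mtm1-/y + TAM. Its 6 highest libraries were the 5 that were low in *Arntl* and Mtm1-/y replicate 1, which was not.

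*Cry2* (ENSMUSG00000068742, chr2:92403646-92434043), 1 of the cryptochromes that repress the activators, was at 38.3, 29.3, 29.7 and 46.7 CPM in WT, at 75.7, 25.9, 33.7 and 31.4 CPM in WT + TAM, at 160, 54.9, 79.8 and 49.9 CPM in Mtm1-/y, and at 48.1, 46.4 and 76.8 CPM in Mtm1-/y + TAM. All 4 Mtm1-/y libraries lay above all 4 WT libraries, and Mtm1-/y replicate 1 was again the highest of the 15. *Cry1* (ENSMUSG00000020038, chr10:85131700-85185064), the other cryptochrome, stayed within 7.48 to 14.1 CPM. *Nr1d1* (ENSMUSG00000020889, chr11:98767932-98775333), the repressor of *Arntl*, stayed within 127 to 238 CPM, with 3 of the 4 WT + TAM libraries, at 203, 238 and 211 CPM, above every library of the other groups. *Dbp* (ENSMUSG00000059824, chr7:45705088-45710203), a transcription factor that passes the rhythm on to metabolic genes, was at 104, 20.03, 41.9 and 92.4 CPM in WT, at 117, 20.7, 46.3 and 21.7 CPM in WT + TAM, at 24.4, 18.2, 58.6 and 31.9 CPM in Mtm1-/y, and at 30.2, 27.5 and 125 CPM in Mtm1-/y + TAM. The 5 libraries lowest in *Arntl* were the 5 highest in *Dbp*.

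**Figure D1:**
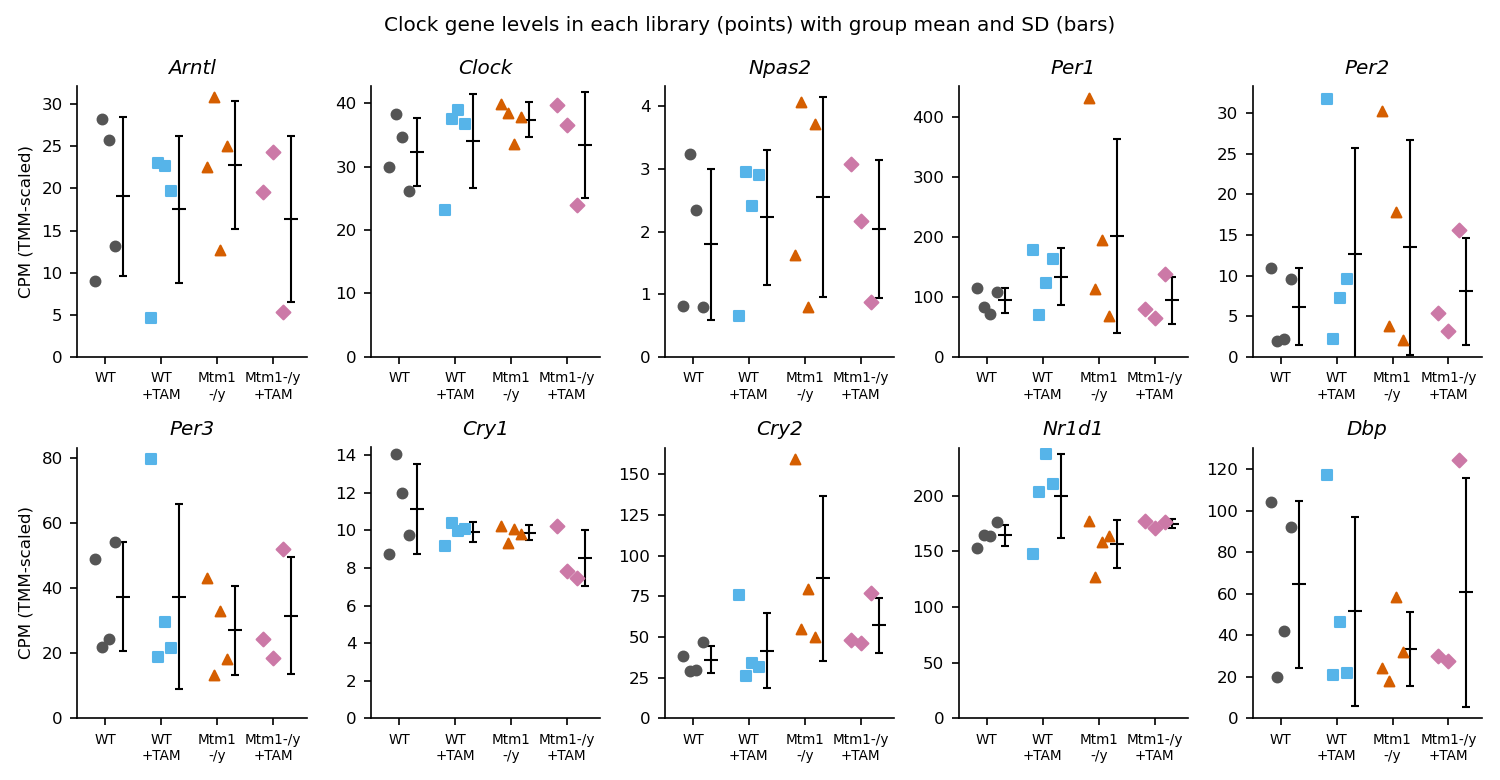
Level of each clock gene in each of the 15 libraries, in TMM-scaled CPM on a linear axis that starts at 0 and differs between panels, with points for mice and bars for the group mean and SD (cut at 0). Low and high libraries of *Arntl*, *Npas2*, *Per2* and *Dbp* stand in all 4 groups, and only in *Cry2* do the WT points (29.3 to 46.7 CPM) and the Mtm1-/y points (49.9 to 160 CPM) not overlap.

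Ordered by median CPM per kilobase of exon over the 15 libraries, the scale on which genes can be compared, the genes ran from *Nr1d1* at 55.4 through *Per1* at 19.9, *Dbp* at 10.7, *Cry2* at 7.39, *Cry1* at 2.99, *Arntl* at 2.99, *Clock* at 2.67, *Per3* at 2.53 and *Per2* at 1.24 to *Npas2* at 0.490. *Cry1*, *Arntl*, *Clock* and *Per3* overlapped in their ranges over libraries, from 2.24 to 4.21, 0.609 to 4.10, 1.68 to 2.90 and 1.40 to 8.29 CPM per kilobase. The SD of log2 CPM within groups set the genes apart by how much they varied between mice of 1 group: it was 1.51 for *Per2*, 1.06 for *Dbp*, 1.00 for *Npas2*, 0.92 for *Arntl*, 0.80 for *Per3*, 0.74 for *Per1* and 0.59 for *Cry2*, against 0.28 for *Clock*, 0.20 for *Cry1* and 0.19 for *Nr1d1*. The median over all tested genes was 0.26. *Per2* exceeded 99.8% of the tested genes by this measure, *Dbp* 98.7%, *Npas2* 98.4% and *Arntl* 97.6%, while *Cry1* exceeded 35.7% and *Nr1d1* 34.5%. *Per3* (95.5%), *Per1* (93.8%) and *Cry2* (86.6%) lay between.

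To set the libraries in order by their clock transcripts, a morning axis was computed for each as the mean log2 CPM of *Arntl*, *Npas2* and *Clock* minus the mean log2 CPM of *Per1*, *Per2*, *Per3* and *Dbp*, so that a higher value means more activator and less PER and DBP transcript. A single difference cannot tell the rising from the falling part of a cycle. The axis is a relative score with no hour attached. It ran from -4.32 in WT + TAM replicate 1 to -0.08 in Mtm1-/y replicate 2. Mtm1-/y replicate 1, at -2.41, was high in *Per1* (432 CPM) and *Per2* (30.3 CPM), while its *Arntl* (22.5 CPM) was not low and its *Dbp* (24.4 CPM) not high. The group means were -1.65 in WT (SD 1.5, n = 4), -1.77 in WT + TAM (SD 1.78, n = 4), -1.37 in Mtm1-/y (SD 1.46, n = 4) and -1.66 in Mtm1-/y + TAM (SD 1.71, n = 3). They spanned 0.40, less than the SD within groups of 1.61, and all 4 groups held libraries near both ends: the lowest library of each lay between -4.32 and -2.83 and the highest between -0.52 and -0.08. The score, made of the members themselves, was given no test, so that a shift of its mean between groups was neither shown nor excluded. On a second axis, log2 CPM of *Nr1d1* minus that of *Cry1*, the libraries ran from 3.55 to 4.56, and the means were 3.90 (SD 0.30) in WT, 4.30 (SD 0.24) in WT + TAM, 3.97 (SD 0.15) in Mtm1-/y and 4.36 (SD 0.23) in Mtm1-/y + TAM. Both TAM groups were higher in mean than both untreated groups by more than the SD within groups of 0.23. The lowest WT + TAM library, at 4.00, lay below the highest WT library, at 4.16. The lowest Mtm1-/y + TAM library, at 4.11, and the highest Mtm1-/y library, at 4.10, lay next to each other. Taken singly, *Nr1d1* and *Cry1* overlapped between these groups and were not called by edgeR (adjusted p = 0.884 and 0.877). The second axis was given no test either.

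**Figure D2:**
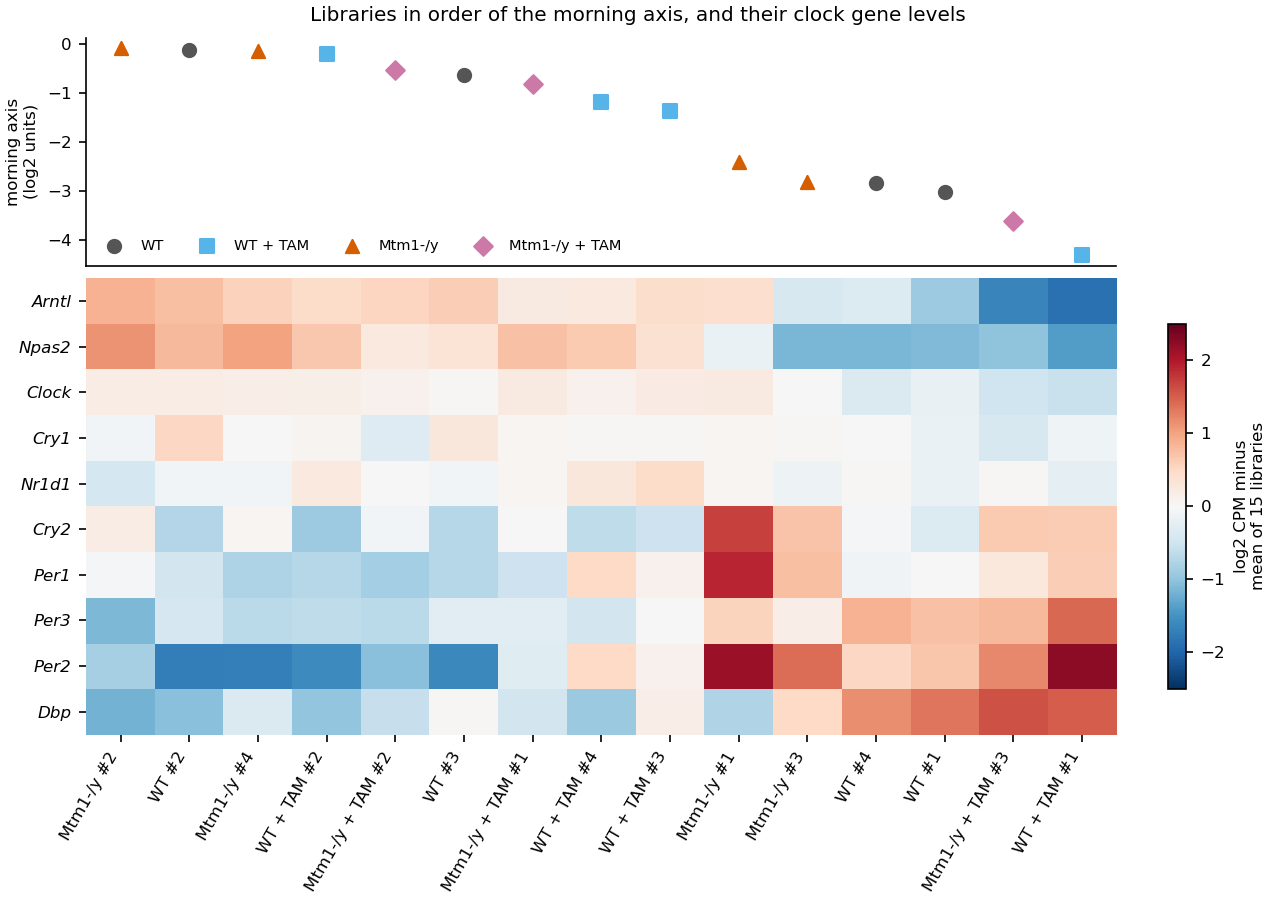
Upper panel, the morning axis in log2 units for each library (# gives the replicate number), ordered from -0.08 to -4.32, with colour and shape for the group. Lower panel, log2 CPM of each clock gene minus its mean over the 15 libraries, as a colour scale. All 4 groups are spread along the order, and Mtm1-/y replicate 1 combines high *Per1*, *Per2* and *Cry2* with low *Dbp*. *Arntl* and *Npas2* go from red to blue as *Per2*, *Per3* and *Dbp* go from blue to red. These genes are part of the axis that set the order, so that their opposed colours follow in part from the sorting.

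Relations between pairs of genes within the groups were described over 15 libraries that share their scaling. Relations with *Arntl* were also read without the 5 libraries lowest in it, among the other 10 alone. Over all 15 libraries, as deviations from the group means, *Arntl* had r = 0.90 with *Npas2* and r = -0.92 with *Dbp*. Without WT + TAM replicate 1 and Mtm1-/y + TAM replicate 3, the libraries farthest out in *Arntl*, these were 0.87 and -0.86. Among the 10 other libraries they were 0.42 and -0.27. These 10 were chosen by their *Arntl* level after it had been seen, which narrows its range and by itself lowers r. *Arntl* and its repressor *Nr1d1* had r = 0.41 over all 15 libraries (exact permutation within groups, two-sided, p = 0.218, rho = 0.10, p = 0.727), 0.04 without the same pair of libraries and -0.68 among the 10. *Per2* and *Per3* varied together over their whole range, with r = 0.91 (exact permutation p = 0.000699, adjusted over 4 pairs p = 0.00108) and rho = 0.86 (p = 0.000856, adjusted p = 0.00342). Their r was 0.88 without the first replicates of WT + TAM and Mtm1-/y, and 0.83 among the 10.

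**Figure D3:**
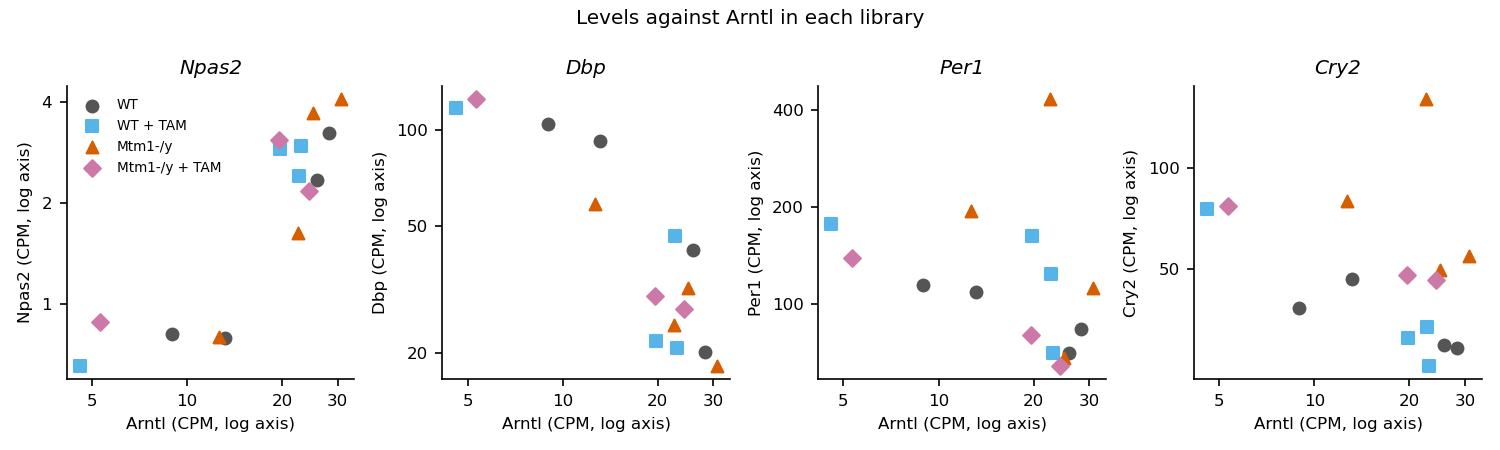
Levels of *Npas2*, *Dbp*, *Per1* and *Cry2* (CPM, log axis) against *Arntl* (CPM, log axis) in the 15 libraries, by group. The 5 libraries with *Arntl* at or under 13.2 CPM have *Npas2* at or under 0.881 CPM and *Dbp* at or over 58.6 CPM, while Mtm1-/y replicate 1 stands alone in *Per1* (432 CPM) and *Cry2* (160 CPM) at an *Arntl* level of 22.5 CPM.

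A slope of each gene on log2 CPM of *Arntl*, with the 4 group means in the model, was then fitted across all genes with edgeR, a test added after these levels had been seen. Of 15532 genes, 13 were called at an adjusted p under 0.05 (0.0837%), of which 7 rose and 6 fell with *Arntl*. Of the other 9 clock genes 4 were called: *Npas2* (slope 1.03 log2 units per log2 unit of *Arntl*, SE 0.16, adjusted p = 0.0239) and *Clock* (0.29, SE 0.04, adjusted p = 0.0239) rose with it, and *Dbp* (-1.02, SE 0.13, adjusted p = 0.0195) and *Per3* (-0.75, SE 0.12, adjusted p = 0.0325) fell. *Per2* (-1.18, SE 0.30), *Cry2* (-0.45, SE 0.13) and *Cry1* (0.13, SE 0.06) reached an unadjusted p under 0.05, as did 7.02% of all genes, but not the adjusted threshold. *Per1* (-0.39, SE 0.20) and *Nr1d1* (0.08, SE 0.06) did not reach either. Without WT + TAM replicate 1, edgeR called no gene of 15509 (467 had an unadjusted p under 0.05), and the slopes of *Npas2*, *Clock*, *Dbp* and *Per3* were 1.09, 0.27, -1.12 and -0.72.

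Among clock output genes, 3 of 13 tested were called for this slope, all falling with *Arntl*: *Hlf* (-0.94, SE 0.10) and *Tef* (-0.33, SE 0.06), which encode the PAR bZIP partners of DBP, and *Pdp1* (-0.32, SE 0.05), a phosphatase that activates pyruvate dehydrogenase. None of the 15 other genes of the loop was called by edgeR, and the 5 with an unadjusted p under 0.05 all had negative slopes: *Ciart*, a repressor of the activator pair (-1.28, SE 0.33), the second REV-ERB gene *Nr1d2* (-0.28, SE 0.06), the E-box repressor genes *Bhlhe41* (-0.30, SE 0.09) and *Bhlhe40* (-0.20, SE 0.07), and the deubiquitinase gene *Usp2* (-0.33, SE 0.10). Members and lists together held 7 of the 13 called genes. The others were *Asb2* (0.45, SE 0.07), *Zhx2* (0.35, SE 0.05), *Miga2* (0.34, SE 0.06), *Sphk2* (0.29, SE 0.04) and *Wsb1* (0.28, SE 0.05), which rose with *Arntl*, and *Nrip1* (-0.44, SE 0.07), which fell.

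**Figure D4:**
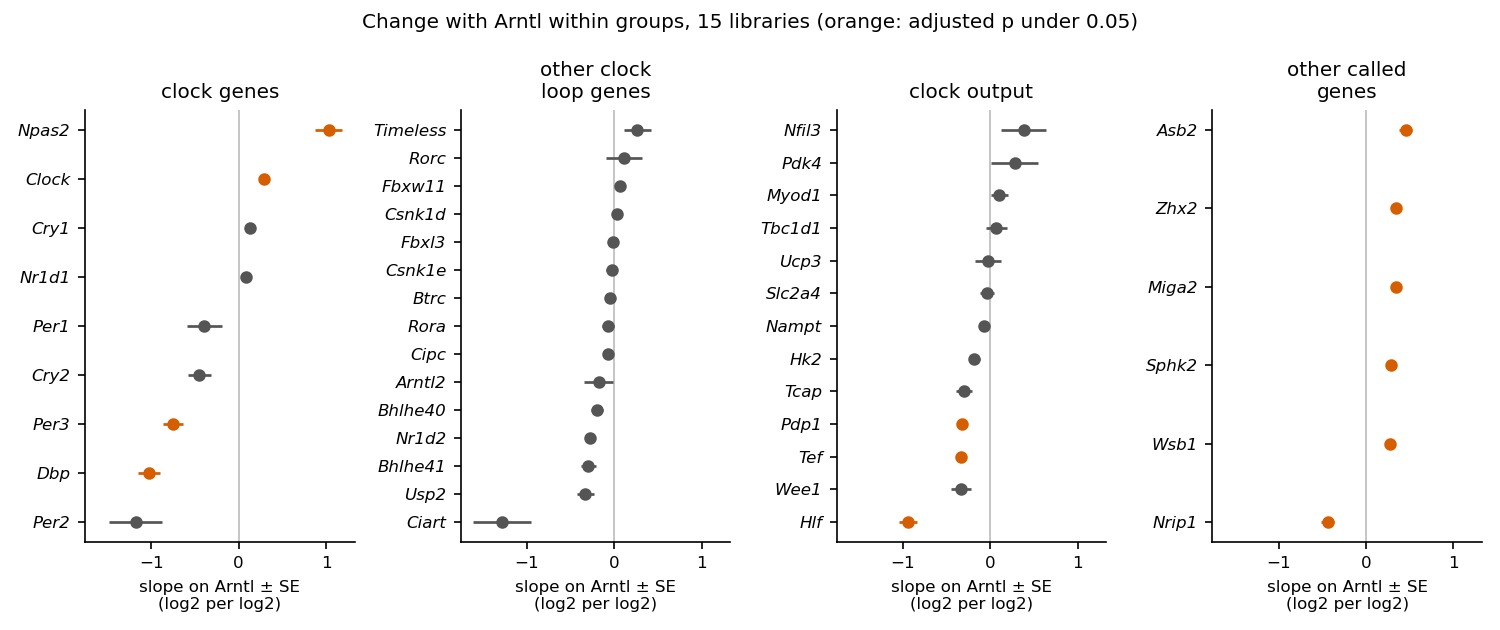
Slope on log2 CPM of *Arntl* within groups (points) with its standard error (bars), in log2 units per log2 unit over 15 libraries, for the clock genes, other genes of the loop, clock output genes and the remaining called genes, with orange for an adjusted p under 0.05. *Npas2* (1.03) and *Clock* (0.29) lie above 0, and *Per3* (-0.75), *Hlf* (-0.94) and *Dbp* (-1.02) below it.

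Ranked by Pearson r with *Arntl* over the deviations from group means (11057 genes whose mean log2 CPM reached 1, 15 libraries), the 8 genes most like it were *Nup62* (0.94), *Clock* (0.93), *Sphk2* (0.91), *Wsb1* (0.91), *Zhx2* (0.90), *Miga2* (0.90), *Asb2* (0.89) and *Rab11fip3* (0.89). *Npas2*, whose r was 0.90, was under this mean level and was not ranked. The 8 most opposed were *Hlf* (-0.92), *Dbp* (-0.92), *Pdp1* (-0.90), *4931406C07Rik* (-0.90), *Per3* (-0.88), *Tef* (-0.88), *Nrip1* (-0.84) and *Styx* (-0.84). *Clock* stood at rank 2 from the top and *Dbp* at rank 2 from the bottom. The ranking was made over all 15 libraries only, and was not repeated without WT + TAM replicate 1, the lowest in *Arntl*. *Dbp* and *Sphk2* lie on opposite strands and share 539 bases of exon, and whether reads were counted by strand is not stated in the sources used here. Their r with *Arntl* was -0.92 and 0.91, and the part of shared reads in these values was not tested.

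Between the genotypes without tamoxifen, 1 of the 10 clock genes was called by edgeR's quasi-likelihood test (adjusted p under 0.05), and 30.4% of all tested genes were. *Cry2* rose in Mtm1-/y, to 86.0 ± 50.7 CPM (SD, n = 4) from 36.0 ± 8.27 CPM (SD, n = 4) in WT, by 1.25 on the log2 scale (SE 0.40, interval of 2 SE 0.45 to 2.06, adjusted p = 0.0321). Its levels did not overlap between these groups, as for 30.5% of all tested genes. *Per1* was at 202 ± 162 CPM against 94.4 ± 20.8 CPM, differed by 1.1 on the log2 scale (SE 0.49, adjusted p = 0.107) and was the only other clock gene with an unadjusted p under 0.05. The call was lost without Mtm1-/y replicate 1, where the log2 fold change was 0.77 (adjusted p = 0.123). It was also lost without WT replicate 1, 2 or 3 (adjusted p = 0.0620, 0.0826 and 0.0777), while the log2 fold change stayed near that of all mice, at 1.29, 1.17 and 1.17. Without Mtm1-/y replicate 1, the remaining *Cry2* levels in Mtm1-/y, at 49.9 to 79.8 CPM, still lay above the WT libraries. With log2 CPM of *Arntl* as a covariate, a fit added after the data were seen, it was 1.42 (adjusted p = 0.00462).

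The remaining clock genes did not pass the test between Mtm1-/y and WT, and their intervals of 2 SE were wide for the genes that varied most: log2 fold changes were 0.26 for *Arntl* (-0.83 to 1.36), 0.53 for *Npas2* (-0.69 to 1.76), 1.11 for *Per2* (-0.80 to 3.01), -0.47 for *Per3* (-1.55 to 0.61) and -0.96 for *Dbp* (-2.38 to 0.46). The steadier genes were bounded more closely, at 0.21 for *Clock* (-0.14 to 0.56), -0.17 for *Cry1* (-0.45 to 0.11) and -0.07 for *Nr1d1* (-0.33 to 0.19). The median over the 10 genes was 0.24, beside 0.00 over all tested genes. As this is bulk muscle, fewer cells of a type and less RNA per cell cannot be told apart. The labels do not say whether the mice came from separate litters, and p-values measure the spread between these libraries only.

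Between WT + TAM and WT no clock gene was called by edgeR, DESeq2 or limma-voom, where edgeR called 0.309% of all tested genes. The largest difference relative to its error was in *Nr1d1*, at 200 ± 37.7 CPM in WT + TAM (SD, n = 4) against 164 ± 9.49 CPM in WT (SD, n = 4), which differed by 0.28 on the log2 scale (SE 0.13, unadjusted p = 0.0453, adjusted p = 0.432), the only one with an unadjusted p under 0.05. Its opposite-strand neighbour *Thra*, which encodes a thyroid hormone receptor and shares 263 exon bases with it, was higher by the same 0.28 on the log2 scale (SE 0.13, adjusted p = 0.412). With WT + TAM replicate 1 and Mtm1-/y replicate 1 left out together, *Nr1d1* was called, at 0.40 (adjusted p = 0.0352). The first of these was the lowest of its group in *Nr1d1*, and the second is in neither group compared here. No fit without 1 library called *Nr1d1*, although it reached the same 0.40, with a lowest edgeR adjusted p of 0.116. The other 9 ran from -0.33 for *Dbp* (interval of 2 SE -1.74 to 1.08) to 1.02 for *Per2* (-0.90 to 2.93), and the median of the 10 was 0.14, beside 0.00 over all tested genes.

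Between Mtm1-/y + TAM and Mtm1-/y, edgeR, DESeq2 and limma-voom also called none of the 10, where edgeR called 0.0129% of all tested genes, and none had an unadjusted p under 0.05 by edgeR. *Per1* was at 94.5 ± 39.2 CPM in Mtm1-/y + TAM (SD, n = 3) against 202 ± 162 CPM in Mtm1-/y, and the fitted difference was -1.09 (SE 0.54, adjusted p = 0.855). *Cry2* was at 57.1 ± 17.1 CPM (SD, n = 3) against 86.0 ± 50.7 CPM, and the difference was -0.59 (SE 0.44, adjusted p = 0.877). *Dbp* was at 60.7 ± 55.3 CPM against 33.3 ± 17.8 CPM, a difference of 0.87 on the log2 scale (SE 0.75), and without Mtm1-/y + TAM replicate 3, its highest library, it was -0.21. The median over the 10 was -0.29, beside -0.00 over all tested genes.

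Between Mtm1-/y + TAM and WT + TAM none of the 10 was called by the 3 tools, where edgeR called 20.1% of all tested genes, and none had an unadjusted p under 0.05 by edgeR. *Cry2* differed by 0.46 on the log2 scale (SE 0.43, interval of 2 SE -0.40 to 1.31, adjusted p = 0.499), and WT + TAM replicate 1, at 75.7 CPM, lay among the Mtm1-/y + TAM libraries. With WT + TAM replicate 1 and Mtm1-/y replicate 1 left out together, *Cry2* (0.91, adjusted p = 0.0175) and *Nr1d1* (-0.31, adjusted p = 0.0290) were called. Both libraries were the highest of their groups in *Cry2*, and Mtm1-/y replicate 1 is in neither group compared here. Over the fits without 1 library neither gene was called, with a lowest edgeR adjusted p of 0.116 for *Cry2* and 0.0644 for *Nr1d1*. The test of whether the genotype difference itself changed under tamoxifen called no gene of the 15533 by edgeR (0.0%, with 1650 at an unadjusted p under 0.05), none by limma-voom and 74 by DESeq2, of which none was a clock gene. Its values for the clock genes were -0.80 for *Cry2* (SE 0.59, adjusted p = 0.643), -1.59 for *Per1* (SE 0.72, unadjusted p = 0.0451, adjusted p = 0.464) and between -1.74 for *Per2* and 1.20 for *Dbp* for the rest, so that a change of the *Cry2* difference with tamoxifen was not shown. These comparisons share groups, and their values are not independent of each other.

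**Figure D5:**
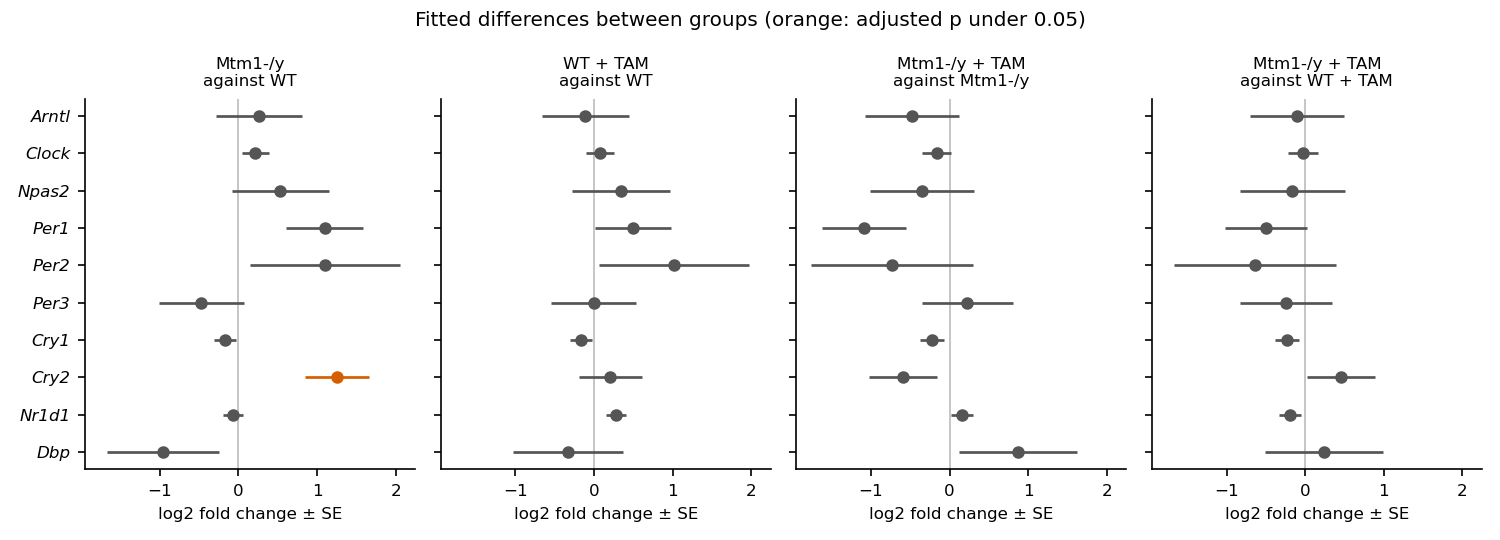
Fitted log2 fold change (points) with its standard error (bars) for each clock gene in the 4 comparisons of groups, with orange for an adjusted p under 0.05. *Cry2* between Mtm1-/y and WT (1.25) is the only called point, and the bars of *Per2*, *Dbp*, *Npas2* and *Arntl* are longer than those of *Clock*, *Cry1* and *Nr1d1*.

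Of 15 further loop genes tested, of 17 listed, 2 rose and 2 fell in Mtm1-/y against WT, a share no higher than the 30.4% called among all tested genes: *Csnk1d*, the casein kinase that marks PER for decay (0.31, SE 0.09, adjusted p = 0.0217), and *Fbxw11*, part of the ligase that degrades it (0.30, SE 0.10, adjusted p = 0.0302), rose, and *Bhlhe41* (-0.72, SE 0.26, adjusted p = 0.0486) and *Timeless*, which also acts in DNA replication (-0.95, SE 0.34, adjusted p = 0.0454), fell. Their median was 0.07. Of 13 clock output genes, *Pdk4*, an inhibitor of pyruvate dehydrogenase (1.70, SE 0.55, adjusted p = 0.0315), and *Myod1*, the myogenic factor (1.00, SE 0.22, adjusted p = 0.00330), rose and *Nampt*, the enzyme of NAD salvage (-0.33, SE 0.12, adjusted p = 0.0434), fell, with a median of 0.01, so that 3 of 13 were called, again no higher a share than the 30.4% of all tested genes. In both tamoxifen comparisons and the interaction edgeR, DESeq2 and limma-voom called no gene of either list, with 0 or 1 gene of each at an unadjusted p under 0.05 by edgeR, and between Mtm1-/y + TAM and WT + TAM edgeR called only *Myod1* (1.03, SE 0.23, adjusted p = 0.00681). There 5 of the 13 output genes and 0 of the 15 loop genes had an unadjusted p under 0.05. DESeq2 called 4 of the 13 and 0 of the 15, and limma-voom 1 and 0. Of all 15533 tested genes, 5241 had an unadjusted p under 0.05 by edgeR in this comparison. DESeq2 called 3698 of them and limma-voom 3060.

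Genes that respond to glucocorticoids, hormones that can also induce *Per1*, and immediate early genes moved in the same comparison as *Cry2*. Of 11 glucocorticoid-responsive genes, 8 rose in Mtm1-/y against WT and none fell, with a median log2 fold change of 1.42, where 30.4% of all tested genes were called in either direction. They included the metallothionein genes *Mt2* (5.04, SE 0.62, adjusted p = 0.000129) and *Mt1* (3.61, SE 0.48), *Fkbp5*, a co-chaperone of the glucocorticoid receptor (2.17, SE 0.69), and the transcription factor gene *Cebpd* (1.70, SE 0.39). Of 8 immediate early genes, 5 rose and none fell, beside the same 30.4%, with a median of 1.28, among them *Junb* (2.91, SE 0.23), *Atf3* (2.02, SE 0.51), *Egr1* (1.84, SE 0.53) and *Fos* (1.55, SE 0.51). Between Mtm1-/y + TAM and WT + TAM the calls were *Mt2* (2.61, SE 0.57) and *Mt1* (1.53, SE 0.47) of the first list and *Junb* (1.77, SE 0.23) and *Nr4a1* (-0.98, SE 0.21) of the second, and in the tamoxifen comparisons and the interaction edgeR made none. In the interaction 8 of the 11 glucocorticoid-responsive genes had an unadjusted p under 0.05 and DESeq2 called 3. In each of the tamoxifen comparisons 5 of the 11 had one. Of all 15533 tested genes, 1650 had one in the interaction, 1757 in the tamoxifen comparison of wild-type mice and 861 in that of Mtm1-/y mice. DESeq2 called 1 of the 11 in the wild-type mice and 0 in the Mtm1-/y mice. The directions differed: the median log2 fold change of the 11 with tamoxifen was 0.92 in the wild-type mice and -0.86 in the Mtm1-/y mice, and -1.98 in the interaction. Immediate early genes with an unadjusted p under 0.05 numbered 0 to 2 in these comparisons. DESeq2 called 0. Their part in the levels of *Cry2* and *Per1* was not tested. For the slope on *Arntl* edgeR called none of the 11 and none of the 8. Of these, 1 and 0 had an unadjusted p under 0.05.

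Total counts were 18042558 to 45823277 per library, and *Mtm1* itself was at 14.9 to 15.6 CPM in WT, 13.5 to 17.7 CPM in WT + TAM, 2.91 to 3.63 CPM in Mtm1-/y and 3.04 to 3.71 CPM in Mtm1-/y + TAM, so that each library matched its labelled genotype. The 6 fast fibre markers summed to 129773 to 210905 CPM. WT + TAM replicate 1, the library lowest in *Arntl*, *Npas2* and *Clock*, stood apart in its 3 slow fibre markers, at 623 CPM against 4.68 to 99.6 CPM in the other libraries, and in its 3 fibroblast markers, at 1826 CPM. The 3 endothelial markers were at 326 to 436 CPM in WT and 163 to 223 CPM in Mtm1-/y, and *Pax7*, the satellite cell marker, at 5.31 to 7.39 and 0.887 to 1.40 CPM. Their part in the difference of *Cry2* was not tested. *Cry2* shares 295 exon bases with the opposite-strand gene *D930015M05Rik*, which had 4 counts in all libraries together, and *Arntl* 33 with *Gm45355*, which had 0.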

How the data were processed

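Libraries were made from tibialis anterior RNA with the TruSeq stranded mRNA kit. The authors deposited raw counts of reads, by Ensembl gene and mouse, without normalization. The submitters' processing notes list the builds GRCm38 and mm10 and, in no stated order, HTSeq 0.6.1p1, STAR 2.5.3a, Bowtie2 2.2.8 and cutadapt 1.10. The sources used here do not state the annotation release or whether counting used strand. All 30672 identifiers matched GENCODE release M21, which gave symbols, coordinates and exon lengths. Samples were grouped by their labels.

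Counts were analysed with edgeR 4.0.16 (limma 3.58.1, R 4.3.3): filterByExpr with a minimum count of 10, TMM factors, 4 group means in 1 quasi-likelihood fit over 15 libraries (robust, 11 residual degrees of freedom), and Benjamini-Hochberg adjustment over 15533 genes with a threshold of 0.05. The comparisons were both genotype differences, both tamoxifen differences and their interaction. Log2 CPM used a prior count of 2. Pairs of genes were tested by exact permutation within groups (82944 arrangements). The edgeR comparisons of groups were tested on simulated counts with 1 spread shared by all genes. The slope on *Arntl*, the pairs and the motif search were not tested in this way.

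The named genes were the 10 clock genes, at most 4 called genes per list and comparison by absolute log2 fold change, and the 8 genes most like and most unlike *Arntl* among those whose mean log2 CPM reached 1. The clock genes, lists and tests were chosen with earlier results of these data known. Alternatives were RLE and upper-quartile factors, no filter and a minimum count of 50, DESeq2 1.42.0, limma-voom, a replicate block, only the groups compared and leaving out each library. The *Arntl* covariate, the slope on *Arntl* and the reading among 10 libraries were chosen after seeing the data. Depth limited precision most for *Npas2*, and counting error is only part of the spread between mice.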

Additional observations from a re-analysis of the deposited data

Results flagged for a closer look

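In WT + TAM, replicate 1 stood apart from the other 3 libraries in *Clock*, at 23.1 CPM against 36.6 to 38.9 CPM, and in *Cry2*, at 75.7 CPM against 25.9 to 33.7 CPM. The gap to the nearest library took up 0.859 and 0.843 of the group's range, over the limit of 0.829 for 4 samples. These were 2 of 36 groups of 4 libraries looked at (the 10 clock genes and both axes, in 3 groups), and chance alone passes this limit in about 5% of groups. The same library was the lowest of all 15 in *Arntl* (4.58 CPM) and *Npas2* (0.654 CPM) and the highest in *Per2* (31.8 CPM) and *Per3* (79.6 CPM), and its slow fibre markers summed to 623 CPM. The part of these markers in its clock gene levels was not tested.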

How the results depend on the processing

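The call of *Cry2* between Mtm1-/y and WT held under both other scalings, the stricter filter, DESeq2 (log2 fold change 1.27, adjusted p = 0.00284), limma-voom (1.11, adjusted p = 0.0285) and the groups compared alone. Without the filter, which puts 30090 genes in the adjustment, 0 of the 10 clock genes were called (*Cry2* 1.26, adjusted p = 0.0850), and leaving out 1 library gave 0 to 2 called genes and 0.77 to 1.45 for *Cry2* (adjusted p 0.0137 to 0.123), with *Per1* called without Mtm1-/y replicate 4 (1.38, adjusted p = 0.0330). With the first replicate of WT + TAM and of Mtm1-/y both left out, the calls were 1 for WT + TAM against WT and 2 for Mtm1-/y + TAM against WT + TAM, and *Cry2* between Mtm1-/y and WT was 0.77 (adjusted p = 0.0227). No fit without 1 library called a clock gene between WT + TAM and WT or between Mtm1-/y + TAM and WT + TAM. The labels do not say whether shared replicate numbers pair the mice. In 21 pairs with the same number, the correlation of deviations ran from -0.11 to 0.31 (median -0.0041) and 6 exceeded 0.1. In pairs with different numbers it ran from -0.34 to 0.21 (median -0.013). Such correlations cannot show whether mice shared a litter or a batch. With the number as a replicate block, *Cry2* was 1.11 (adjusted p = 0.0312), and the number of clock genes called stayed the same in each comparison. Over all genes, DESeq2 called 298 between WT + TAM and WT where edgeR called 48, and 4 where edgeR called 2 between Mtm1-/y + TAM and Mtm1-/y.

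Among values past no threshold, some changed sign. Over the fits without 1 library, *Nr1d1* ran from -0.14 to 0.018 between Mtm1-/y and WT. Between WT + TAM and WT, *Arntl* ran from -0.35 to 0.21, *Clock* from -0.0098 to 0.23, *Per3* from -0.68 to 0.23, *Cry2* from -0.25 to 0.38 and *Dbp* from -1.12 to 0.00082. Between Mtm1-/y + TAM and Mtm1-/y, *Clock* ran from -0.30 to 0.028, *Npas2* from -0.74 to 0.030, *Per2* from -1.67 to 0.059, *Per3* from -0.34 to 0.55 and *Dbp* from -0.21 to 1.28. Between Mtm1-/y + TAM and WT + TAM, *Arntl* ran from -0.52 to 0.33, *Clock* from -0.18 to 0.16, *Npas2* from -0.55 to 0.22, *Per2* from -1.58 to 0.34, *Per3* from -0.81 to 0.43 and *Dbp* from -0.84 to 1.03. In the interaction, *Arntl* ran from -0.78 to 0.065, *Per3* from -0.34 to 0.91 and *Cry1* from -0.20 to 0.044.

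*Per3* between WT + TAM and WT was 0.0050 with RLE factors, 0.0067 with the stricter filter and 0.0084 with DESeq2. With both left out, *Arntl* was 0.21 and *Cry2* -0.25 between WT + TAM and WT, *Per2* was 0.063 between Mtm1-/y + TAM and Mtm1-/y, *Per2* was 0.34 and *Per3* 0.43 between Mtm1-/y + TAM and WT + TAM, and the interaction was 0.033 for *Per2* and 0.14 for *Cry2*. With *Arntl* as a covariate, *Npas2* was 0.36, *Per3* -0.37 and *Dbp* -0.062 between Mtm1-/y + TAM and Mtm1-/y, *Clock* was 0.0046 and *Npas2* 0.055 between Mtm1-/y + TAM and WT + TAM, and *Per3* was -0.080 in the interaction. The r of *Arntl* with *Nr1d1* ran from -0.12 to 0.62 over the fits without 1 library. Without WT + TAM replicate 1, and without it and Mtm1-/y + TAM replicate 3, 0 genes were called for the slope on *Arntl*, and the slope of *Nr1d1* was -0.019 and -0.028. The cause of these changes was not tested.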

Other observations

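*Fkbp5*, which encodes a co-chaperone of the glucocorticoid receptor, was set beside *Per1* after the values had been seen. In Mtm1-/y, *Fkbp5* was at 326, 84.8, 257 and 31.9 CPM in replicates 1 to 4, and *Per1* was at 432, 112, 195 and 67.9 CPM, so that both genes put these mice in the same order. In WT + TAM, *Fkbp5* was at 136, 21.3, 67.9 and 146 CPM and *Per1* at 178, 70.3, 124 and 163 CPM, with replicate 2 lowest and replicate 3 next in both. In WT, *Fkbp5* stayed within 28.1 to 47.6 CPM and *Per1* within 70.7 to 115 CPM, in different orders. In Mtm1-/y + TAM, replicate 3 was highest in *Per1*, at 139 CPM, and lowest in *Fkbp5*, at 29.2 CPM. Their relation was not tested.

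The output gene *Hlf*, a relative of *Dbp*, was measured in the WT mice at 15.5, 5.53, 5.75 and 10.4 CPM and in WT + TAM at 23.0, 4.18, 5.48 and 3.51 CPM. In Mtm1-/y it was at 4.37, 1.61, 5.02 and 1.84 CPM, and in Mtm1-/y + TAM at 2.07, 1.38 and 4.36 CPM. The library highest in each group was among the 5 lowest in *Arntl*, and was the highest in *Dbp* as well. All 7 libraries of Mtm1-/y and Mtm1-/y + TAM lay at or under 5.02 CPM, and its log2 fold changes were -1.54 (SE 0.64, adjusted p = 0.0868) between Mtm1-/y and WT and -1.77 (SE 0.73, adjusted p = 0.104) with tamoxifen, which did not pass edgeR's test.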
